A study of Mus musculus with 36 samples.

Results

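Osgin1, the gene of oxidative stress-induced growth inhibitor 1, was followed together with the transcription factor gene Nfe2l2, its inhibitor gene Keap1 and 7 of their classical target genes in mouse liver. These 10 genes were selected by name from the 53715 genes of the count table, and all 10 of them passed the low-count filter that left 14068 genes for testing. Osgin1 entered the selection through its difference between red tomato and control livers in these same libraries, so its diet differences are given as descriptions without a test. The other 9 genes, Nfe2l2, Keap1, Nqo1, Gclc, Gclm, Hmox1, Txnrd1, Srxn1 and Ugdh, were chosen for what they do, though earlier results of these data were known. The livers came from male C57BL/6 mice aged 10 weeks. From an age of 4 weeks, for 6 weeks, the mice ate the purified AIN93G diet as control, the same kind of diet with 10% red tomato powder, or one with 10% tangerine tomato powder, matched in macronutrients. Red tomatoes carry lycopene mainly in the all-trans form and tangerine tomatoes mainly in cis forms. Each diet has 12 libraries with mouse numbers of their own, which were taken as 12 mice.

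NRF2, the protein made from Nfe2l2, switches on genes of antioxidant defence and detoxification. In an unstressed cell KEAP1 holds NRF2 and passes it to a ubiquitin ligase for degradation. Electrophiles and oxidants modify cysteines of KEAP1, NRF2 then builds up, pairs with a small MAF protein and binds the antioxidant response element near its target genes. Products of these targets make glutathione, reduce quinones and thioredoxin, break down heme and supply glucuronic acid for conjugation. Much of this control acts on the NRF2 protein, so the Nfe2l2 transcript alone does not report its activity. OSGIN1 is described as an NRF2 target induced by oxidized lipids and polyphenols.

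The sequence before the start site is shown for Osgin1, whose level differed most between the diets among the 10 genes, and for 3 targets that hold the core letters of the antioxidant response element there. The core was searched as TGACNNNGC on both strands in RefSeq windows of genome build GRCm38.p6 that run from 250 bases before to 50 bases after an annotated start. Such windows were found for 8 of the 10 genes (10 windows in all, of which Txnrd1 has 3). Gclc and Hmox1 are named only. Each line gives the 250 bases before the start, 5′ to 3′ in the direction of the gene, with the core in capitals. The 4 stretches lie at chr8:119436897-119437146 (plus strand) for Osgin1, chr3:122245307-122245556 (plus) for Gclm, chr10:82858956-82859205 (plus, the second of 3 starts) for Txnrd1 and chr5:65435843-65436092 (minus) for Ugdh.
Osgin1: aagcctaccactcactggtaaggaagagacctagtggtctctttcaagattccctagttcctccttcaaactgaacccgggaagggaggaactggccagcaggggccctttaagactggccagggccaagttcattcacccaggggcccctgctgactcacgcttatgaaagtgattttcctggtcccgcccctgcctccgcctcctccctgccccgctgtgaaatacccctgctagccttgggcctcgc
Gclm: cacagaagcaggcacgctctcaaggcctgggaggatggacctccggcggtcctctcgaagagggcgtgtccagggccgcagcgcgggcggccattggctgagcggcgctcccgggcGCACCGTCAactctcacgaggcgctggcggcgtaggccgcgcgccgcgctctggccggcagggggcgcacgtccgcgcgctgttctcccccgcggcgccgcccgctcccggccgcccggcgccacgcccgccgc
Txnrd1: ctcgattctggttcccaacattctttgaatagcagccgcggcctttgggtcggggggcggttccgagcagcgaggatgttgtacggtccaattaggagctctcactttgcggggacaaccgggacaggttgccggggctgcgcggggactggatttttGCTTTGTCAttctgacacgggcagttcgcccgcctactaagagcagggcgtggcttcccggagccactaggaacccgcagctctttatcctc
Ugdh: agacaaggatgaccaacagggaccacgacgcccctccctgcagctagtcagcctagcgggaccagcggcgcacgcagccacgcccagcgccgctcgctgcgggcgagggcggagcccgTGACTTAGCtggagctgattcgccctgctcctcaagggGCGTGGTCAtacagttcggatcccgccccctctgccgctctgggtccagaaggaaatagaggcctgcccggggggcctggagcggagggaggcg
Gclm holds 1 match, which begins 134 bases before the start on the opposite strand. Txnrd1 holds 1, which begins 92 bases before its second start, also on the opposite strand. Ugdh holds 2, which begin 132 and 94 bases before the start, the first on the strand of the gene and the second on the opposite one. Nfe2l2 has a match that begins 240 bases before the start, and Srxn1 has one just after it. Osgin1, Keap1 and Nqo1 have none in their windows, and the RefSeq start of Osgin1 lies inside the span that GENCODE M21 gives the gene. Among 32851 windows of this length, 12.4% hold the core by its letters. The E-box CACGTG, the letters bound by the clock factors CLOCK and BMAL1, is in 7.15% of those windows and in 0 of the 10 member windows.

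Total counts per library ran from 21290169 to 33810573, and the ranges of the 3 diets overlapped. Hepatocyte markers (Alb, Apoa1, Ttr, Cps1 and Serpina1c) summed to between 81752 and 120804 CPM (counts scaled to a common library size) in every library. There were 3 libraries that stood apart in markers of other cells. Red replicate 186 held 153 CPM of summed T cell markers against at most 4.06 in the other 35 libraries. Tangerine replicate 216 held 11.1 CPM of pancreas markers against at most 0.330. Tangerine replicate 192 held 107 CPM of Spp1, 1 of the 5 cholangiocyte markers, against at most 41.9. All 5 summed to 111 CPM there, so that sum was nearly all Spp1. Results that rest on these libraries are given below with and without them. In whole liver, fewer cells of a type and less RNA per cell cannot be told apart.

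Osgin1 (ENSMUSG00000074063, chromosome 8, 119434124 to 119446256, GRCm38) was high on red powder, intermediate on tangerine powder and low on control. On control the lowest library held 46.3 CPM, the median was 78.2 and the highest 161 CPM. On red the same values were 44.3, 187 and 316 CPM, and on tangerine 44.8, 139 and 195 CPM. Of the 12 red livers, 11 lay above the control median and 7 above every control. Of the 12 tangerine livers, 10 lay above the control median and 4 above every control. The red and tangerine groups overlapped over most of their range, and each tomato group reached down to the control range. Red replicate 204 and tangerine replicate 128 were lower than all controls, at 44.3 and 44.8 CPM, and control replicate 189 was at 161 CPM. The means were 79.4 ± 31.5 CPM on control, 183 ± 77.9 on red and 131 ± 44.5 on tangerine (SD, n = 12 each). The log2 fold change was 1.21 (SE 0.240) on red and 0.72 (SE 0.239) on tangerine, each against control, or 2.31 and 1.65 times the control level. These 2 differences share their control livers. Tangerine against red gave -0.49 (SE 0.237). The value for red against control was 1.30 without red replicate 204, and leaving out any library in turn kept it between 1.11 and 1.35. With a score of circadian clock genes as covariate, described below, the log2 fold changes were 0.87 for red and 0.81 for tangerine relative to control, and -0.06 between the tomato diets.

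Between mice of 1 diet Osgin1 also spread more widely than most of the other genes. Its coefficient of variation was 39.7% on control, 42.4% on red and 33.9% on tangerine. Over the other 9 genes it ran from 4.81% (Txnrd1 on tangerine) to 28.8% (Nqo1 on red), with the exception of 51.8% for Hmox1 on tangerine, which rests on 1 library. The highest red liver held 7.13 times the Osgin1 level of the lowest. Per kilobase of exon, Osgin1 averaged 49.1 CPM over all 36 livers. That level lay below Gclc at 81.7 and above Txnrd1 at 17.3, Nfe2l2 at 16.5, Ugdh at 13.5, Srxn1 at 12.3, Hmox1 at 8.87, Keap1 at 4.47, Gclm at 2.77 and Nqo1 at 2.11 CPM per kilobase. By the mean ± SD over livers, Osgin1 (SD 25.6) overlapped Gclc (SD 19.6). Each later neighbour in that order overlapped the next, apart from Osgin1 with Txnrd1, Hmox1 with Keap1 and Keap1 with Gclm. Osgin2, the paralog of Osgin1, was scarce at 1.54 ± 0.274, 1.36 ± 0.302 and 1.38 ± 0.264 CPM on control, red and tangerine. Its log2 fold change for red against control was -0.17 (edgeR adjusted p 0.563, SE 0.122).

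**Figure D1:**
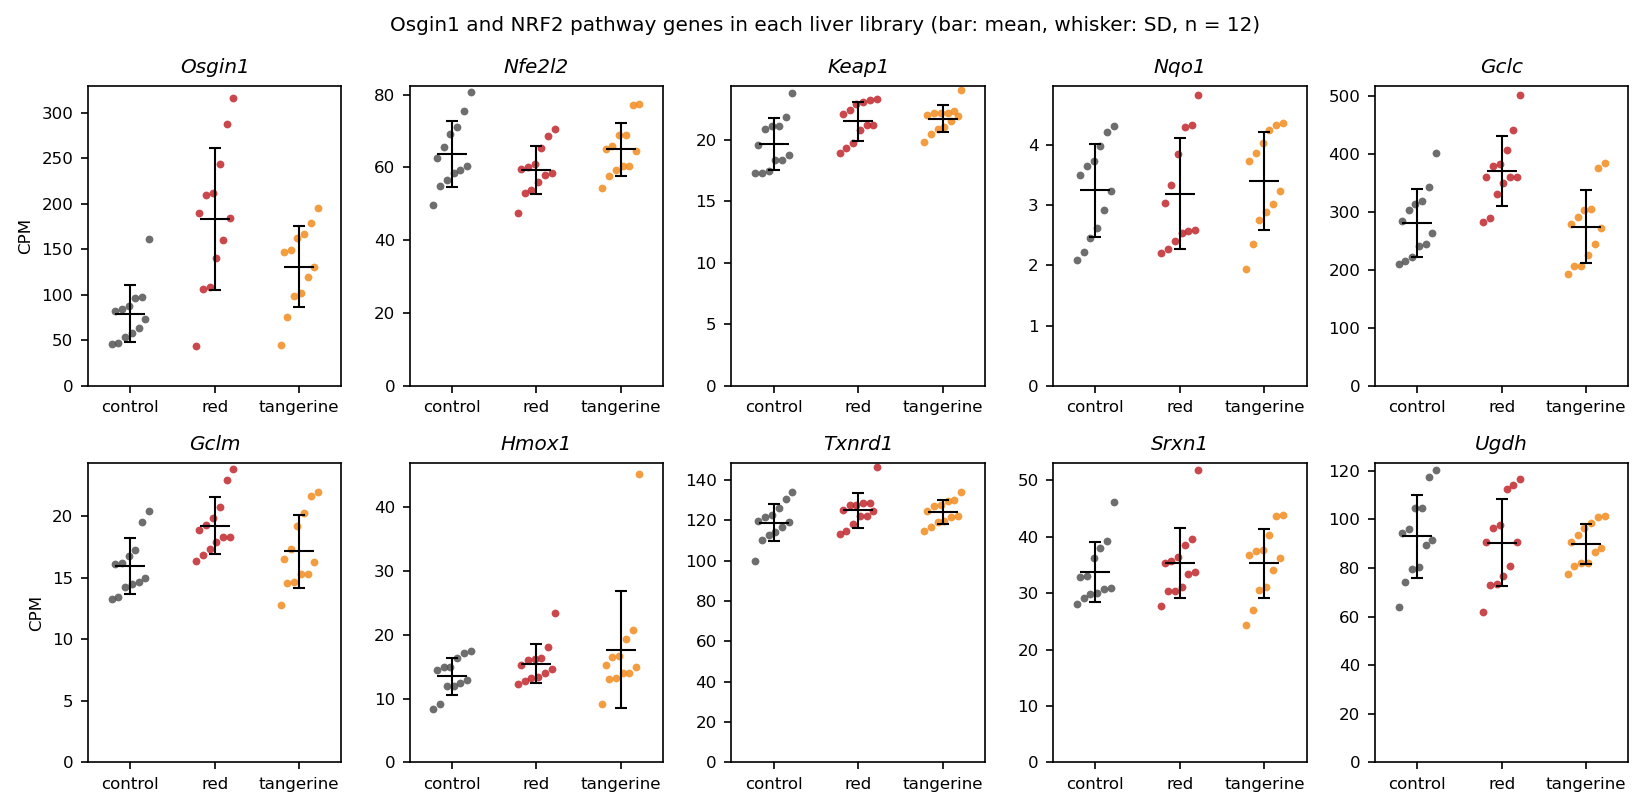
Level of each of the 10 genes in CPM (vertical axes, from 0) in every liver of the control, red and tangerine diets. Points are single livers, bars are means and whiskers SDs of 12. Osgin1 livers on red reach 316 CPM against 161 on control, Gclc lies higher on red than on the other diets, and 1 tangerine liver stands apart in Hmox1 at 45.1 CPM.

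Neither regulator at the head of the pathway was called in any comparison. Nfe2l2 (ENSMUSG00000015839, chromosome 2, 75675513 to 75704641), which encodes NRF2 itself, ran from 49.6 through a median of 61.5 to 80.7 CPM on control, from 47.6 through 58.9 to 70.5 on red and from 54.5 through 64.8 to 77.3 on tangerine. The 3 ranges overlapped over most of their length. Its log2 fold change was -0.10 (edgeR adjusted p 0.560, SE 0.071) for red and 0.03 (SE 0.071, adjusted p 0.9999) for tangerine against control. Keap1 (ENSMUSG00000003308, chromosome 9, 21229730 to 21239361), the gene of the inhibitor, had medians of 19.2 CPM on control, 21.6 on red and 21.9 on tangerine. Its ranges were 17.3 to 23.8, 18.9 to 23.3 and 19.8 to 24.03 CPM, and 11 red and all 12 tangerine livers lay above the control median. The log2 fold changes were 0.13 (SE 0.050) for red and 0.14 (SE 0.050) for tangerine. At an unadjusted p of 0.0135 and 0.00705 these did not pass adjustment over all genes (edgeR adjusted p 0.245 and 0.625).

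The 2 subunits of glutamate-cysteine ligase, the rate-limiting enzyme of glutathione synthesis, are described together. Gclc (ENSMUSG00000032350, chromosome 9, 77754535 to 77794485), the catalytic subunit, ran from 210 through a median of 274 to 402 CPM on control, from 283 through 360 to 501 on red and from 193 through 275 to 384 on tangerine. All 12 red livers lay above the control median, 3 of them above every control, whereas 6 of 12 tangerine livers did. Its means were 280 ± 58.3, 370 ± 60.3 and 274 ± 62.8 CPM (SD, n = 12 each). Between the tomato diets Gclc was lower on tangerine, with a log2 fold change of -0.43 (edgeR adjusted p 0.0359, SE 0.113). Red against control gave 0.40 (edgeR adjusted p 0.0978, SE 0.113), which did not pass, and tangerine against control -0.03 (SE 0.113, adjusted p 0.9999).

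The call for Gclc between the tomato diets was not firm. It was made in 24 of the 36 fits that each left out 1 library, and lost on leaving out 5 of the 12 red livers (replicates 133, 166, 175, 199 and 202) or 7 of the 12 tangerine livers (195, 197, 198, 215, 216, 217 and 242), with adjusted p from 0.0167 to 0.0751. A fit that included the clock score gave a log2 fold change of -0.12 (edgeR adjusted p 0.712). In red against control Gclc passed by DESeq2 (adjusted p 0.0371), by limma-voom with sample weights (0.0277) and without control replicate 120 (edgeR adjusted p 0.0403). Including the clock score gave 0.17 there (adjusted p 0.592).

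Gclm (ENSMUSG00000028124, chromosome 3, 122245557 to 122270732), the modifier subunit, ran from 13.3 through a median of 15.6 to 20.4 CPM on control, from 16.4 through 18.6 to 23.8 on red and from 12.8 through 16.4 to 21.99 on tangerine. As with Gclc, all 12 red livers lay above the control median and 3 above every control. Its log2 fold change for red against control was 0.27 (SE 0.083) with an unadjusted p of 0.00244 that did not pass over all genes (edgeR adjusted p 0.132). For tangerine the value was 0.11 against control and -0.16 against red (edgeR adjusted p 0.9999 and 0.342). Including the clock score gave 0.25 for Gclm in red against control.

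Among the genes of quinone, heme and thioredoxin chemistry, no diet difference passed the test. Nqo1 (ENSMUSG00000003849, chromosome 8, 107388225 to 107403206), a quinone reductase often used as an index of NRF2 activity, was scarce at 3.24 ± 0.774, 3.19 ± 0.919 and 3.40 ± 0.814 CPM on control, red and tangerine. Its interval for red against control ran from -0.32 to 0.28 on the log2 scale. The 1.21 of Osgin1 lies outside that interval, but Osgin1 was chosen for this difference, so setting the 2 side by side is no test. Txnrd1 (ENSMUSG00000020250, chromosome 10, 82833951 to 82897712), which reduces thioredoxin, varied least, at 119 ± 9.27, 125 ± 8.49 and 124 ± 5.96 CPM. The log2 fold change of Txnrd1 was 0.07 for red and 0.06 for tangerine against control (SE 0.043 each, edgeR adjusted p 0.499 and 0.995). Srxn1 (ENSMUSG00000032802, chromosome 2, 152105516 to 152111376), which restores oxidized peroxiredoxins, held 33.7 ± 5.31, 35.3 ± 6.26 and 35.3 ± 6.12 CPM, with log2 fold changes of 0.07 on either powder (SE 0.095, edgeR adjusted p 0.797 for red and 0.9999 for tangerine). Ugdh (ENSMUSG00000029201, chromosome 5, 65413221 to 65435949), which makes the sugar donor for glucuronidation, held 93.0 ± 17.0, 90.4 ± 17.8 and 89.8 ± 8.31 CPM. Its log2 fold changes against control were -0.04 on red and -0.05 on tangerine (SE 0.094 each, edgeR adjusted p 0.887 and 0.9999).

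Hmox1 (ENSMUSG00000005413, chromosome 8, 75093621 to 75100589), the heme-degrading enzyme induced by stress, ran from 8.31 through a median of 13.7 to 17.4 CPM on control, from 12.3 through 14.9 to 23.4 on red and from 9.22 through 15.1 to 45.1 on tangerine. The top value belongs to tangerine replicate 192, the library with the high Spp1. With it the log2 fold change of tangerine against control was 0.39 (unadjusted p 0.0266, edgeR adjusted p 0.819) and without it 0.17 (adjusted p 0.962). The tangerine mean was 17.7 ± 9.15 CPM (n = 12) with that liver and 15.2 ± 3.16 (n = 11) without it, beside 13.5 ± 2.92 on control and 15.5 ± 3.07 on red. Red against control gave 0.19 (edgeR adjusted p 0.654, SE 0.168). Hmox1 is also made by Kupffer cells, the macrophages of the liver. Across the 36 livers, with diet means removed, Hmox1 correlated with the 5 Kupffer cell markers (r 0.58) and the 5 cholangiocyte markers (r 0.60), as a description. In tangerine replicate 192, Spp1 made up 107 of the 111 CPM of these cholangiocyte markers. Without tangerine replicate 192 the r was 0.76 with the Kupffer cell markers and 0.26 with the cholangiocyte markers (35 livers). Markers of sinusoidal endothelium gave r 0.33 with that liver and 0.56 without it, and their part was not tested. The summed Kupffer markers ran from 68.5 to 233 CPM on control, 141 to 253 on red and 99.2 to 213 on tangerine. None of the 5 was at 0 in a whole diet, and their part in the Hmox1 values was not tested.

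Counted over the 9 genes other than Osgin1, the edgeR test called 0 in red against control, where 0.149% of all genes tested were called. At an unadjusted p under 0.05, Keap1, Gclc and Gclm were higher (3 of 9, against 6.67% of all genes higher and 13.3% in either direction), and DESeq2 and limma-voom each called 1, Gclc, where they called 1.29% and 10.5% of all genes with an adjusted p. In tangerine against control edgeR again called 0 of 9, against 0.0142% of all genes, and so did DESeq2 (0.0828% of all genes), which gave an adjusted p for 8 of them, and limma-voom (0.0142%). Keap1 and Hmox1 were higher there at an unadjusted p under 0.05 (2 of 9, against 2.32% of all genes higher and 5.47% in either direction). In tangerine against red 1 of 9 was called, Gclc as lower, against 1.71% of all genes in either direction and 0.981% lower. It was called by DESeq2 and limma-voom as well, where 2.89% and 5.2% of all genes were. EdgeR called 0 of 9 without the low-count filter (Gclc adjusted p 0.0621), where it called 136 of 27335 genes (0.498%), and with the clock score, where it called 0 of 14068 genes (0%). It also called 0 of 9 without red replicate 186, tangerine replicate 192 and tangerine replicate 216 (Gclc 0.112), where it called 69 of 14104 genes (0.489%). Both tomato diets together against control gave 0 of 9 by each of the 3 tools, against 0.00711% of all genes by edgeR, 0.127% by DESeq2, which gave an adjusted p for 8 of the 9, and 0.242% by limma-voom, with Keap1 and Gclm higher at an unadjusted p under 0.05 (2 of 9, against 3.05% of all genes). The median log2 fold change of the 9 genes was 0.07 in red and 0.07 in tangerine against control and -0.00 in tangerine against red. Over all genes tested it was -0.00, -0.01 and -0.00. The 2 comparisons with control share the control livers.

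**Figure D2:**
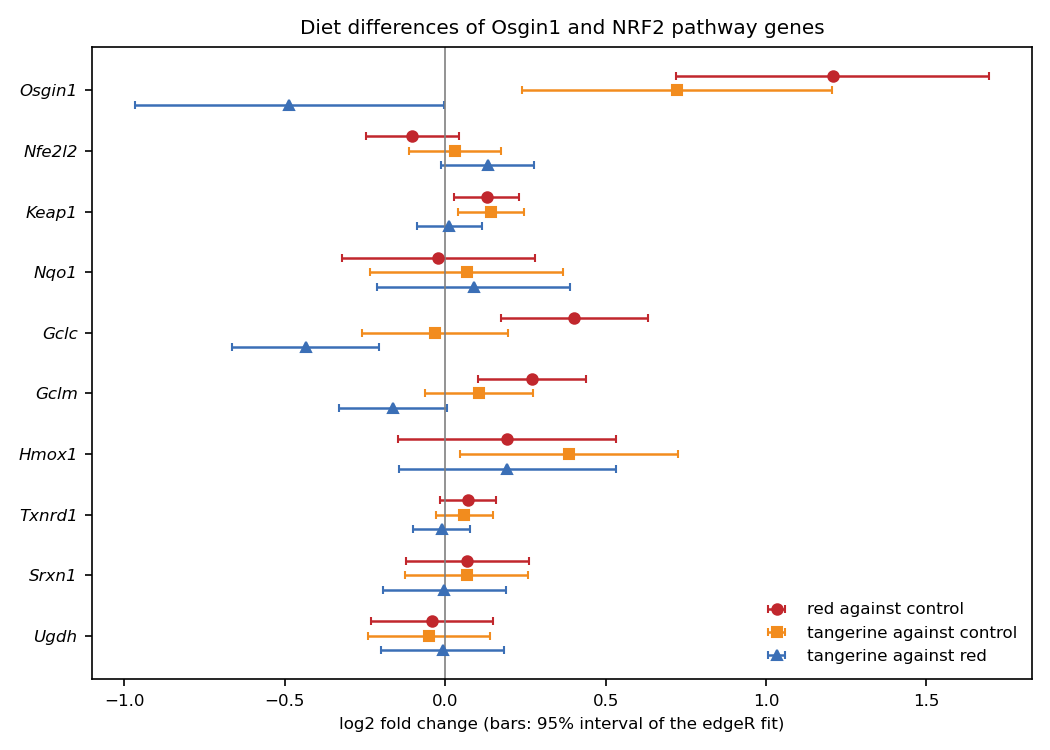
Log2 fold changes (horizontal axis) of the 10 genes in red against control, tangerine against control and tangerine against red, with 95% intervals from the edgeR fit of 36 livers. Osgin1 was chosen for its red value and is shown as a description. Its 1.21 in red against control lies well to the right of the 0.40 of Gclc, the next gene, and the interval of Gclc in tangerine against red lies wholly below 0.

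Whether Osgin1 moves with the pathway was then asked between mice of the same diet, which the diet contrasts do not use. Log2 CPM values were centred on the diet means and correlated over the 36 livers, with permutation of livers within diets. Osgin1 had its highest r with Srxn1 (r 0.39, permutation p 0.0258, adjusted over 9 genes 0.233, and Spearman's rho 0.42, p 0.0128, adjusted 0.115). Without the 2 livers farthest in Osgin1, red replicate 204 and tangerine replicate 128, r with Srxn1 was 0.43. Nfe2l2 came next at r 0.28 (permutation p 0.0964, adjusted 0.434, rho 0.31, p 0.0696, adjusted 0.313, and r 0.32 without those 2 livers). The rest gave r of 0.20 for Gclc, 0.18 for Nqo1, 0.09 for Gclm, 0.03 for Keap1, 0.01 for Txnrd1, -0.03 for Ugdh and -0.07 for Hmox1. No relation passed adjustment by Pearson or by Spearman (0 of 9). Among 10968 genes whose log2 CPM averaged 1 or more, 3.88% had a higher r with Osgin1 than Srxn1 did, and 12.6% had a higher r than Nfe2l2. The quartiles of r over those genes were -0.20 and 0.18.

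The same relations were examined within single diets. The r of Osgin1 with Srxn1 was 0.73 on control, 0.19 on red and 0.38 on tangerine, and on control it was 0.37 without replicates 189 and 183. With Nfe2l2 it was 0.64 on control, 0.14 on red and 0.10 on tangerine. None of the 27 relations within single diets passed adjustment (0 by Pearson and 0 by Spearman). With the clock score regressed out, r with Srxn1 was 0.30 and with Nfe2l2 0.32. Osgin1 was also compared with 2 measures of the libraries, the clock score and the total count, with p adjusted over the 2. The clock score was included because an earlier description of these data had Osgin1 move with it. Its p-values come from the same libraries and are no independent support. With the clock score Osgin1 had r -0.31 (permutation p 0.0599, adjusted 0.120) and rho -0.35 (p 0.0419, adjusted 0.0419). Adjusted instead over the 10 genes compared with that score, neither passed (0.205 for r and 0.137 for rho). With the total count it had r -0.23 (permutation p 0.198, adjusted 0.198) and rho -0.40 (p 0.0185, adjusted 0.0370). Without the 2 livers farthest in Osgin1 the r with the total count was -0.33, and its part in the other relations was not tested.

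The 9 other genes were also compared among themselves, with p adjusted over 36 pairs. Of their 36 pairs, 5 passed by Pearson and 3 of these by Spearman as well, and 29 had an r above 0, against 7 of the 9 pairs with Osgin1. The median r was 0.23 over these pairs and 0.09 over those with Osgin1. The difference between the 2 groups of pairs was not tested, nor was how often other gene pairs reach such r. The 3 pairs that passed both ways were Keap1 with Txnrd1 (r 0.58, rho 0.58, permutation p adjusted over 36 pairs 0.0107 and 0.0137), Gclc with Gclm (r 0.58, rho 0.54, adjusted p 0.0107 and 0.0233) and Nqo1 with Gclm (r 0.54, rho 0.54, adjusted p 0.0107 and 0.0184). Without the 2 livers farthest in the first gene, r was 0.52, 0.47 and 0.57. Within diets the subunit pair Gclc and Gclm gave r of 0.41 on control, 0.45 on red and 0.76 on tangerine. Keap1 with Txnrd1 gave 0.64, 0.53 and 0.51. Nqo1 with Gclm gave 0.51, 0.61 and 0.54. The other 2 pairs, Nfe2l2 with Nqo1 (r 0.50, adjusted p 0.0220) and Gclm with Ugdh (r 0.43, adjusted p 0.0403), did not pass by Spearman (permutation p adjusted 0.0784 and 0.200). Without the 2 livers farthest in the first gene their r was 0.45 and 0.41.

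**Figure D3:**
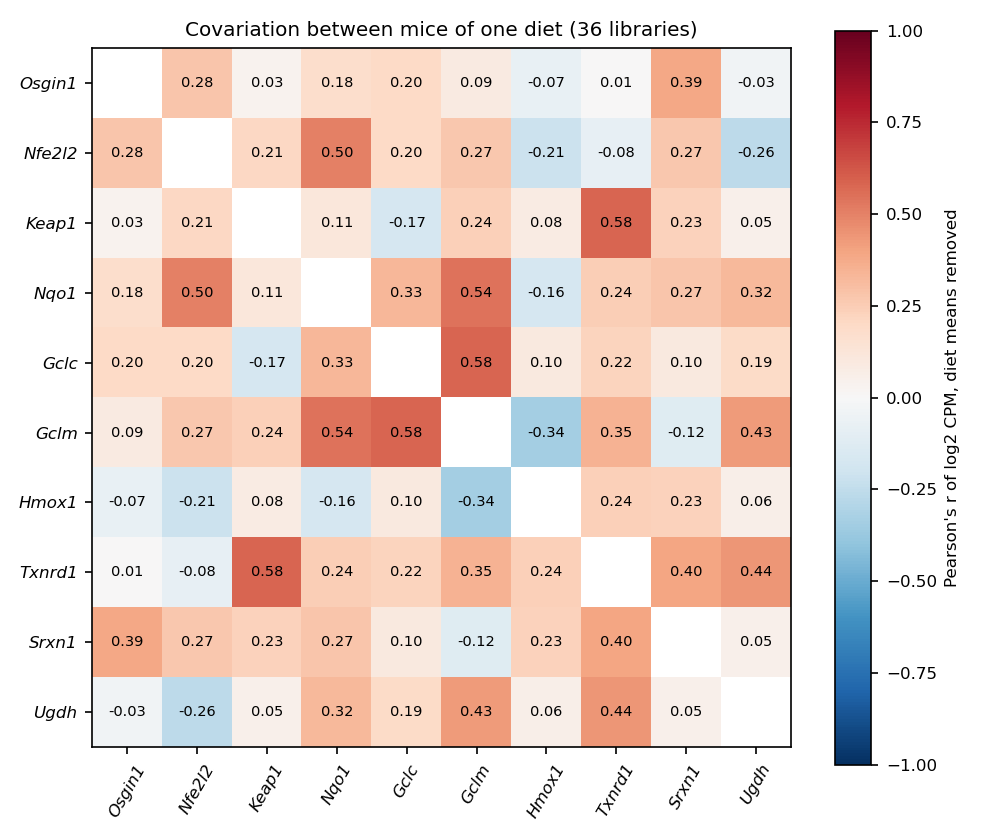
Pearson's r of log2 CPM between each pair of the 10 genes over 36 livers after removal of the diet means, coloured from blue (-1) to red (1). The Osgin1 row is pale apart from Srxn1 at 0.39 and Nfe2l2 at 0.28, whereas Gclc with Gclm and Keap1 with Txnrd1 reach 0.58.

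Of 10 circadian clock genes tested, edgeR called 2 as higher and 4 as lower on tangerine than on red. Of all genes, 1.71% were called there. The members were set beside the clock genes because an earlier description of these data had Osgin1 move with the clock score. EdgeR called 0 of the 10 clock genes against control on either powder (0.149% of all genes on red and 0.0142% on tangerine). In red against control DESeq2 called Per2 as lower (1.29% of all genes were called). Limma-voom called 3 as higher and 4 as lower there (10.5% of all genes). Neither called any in tangerine against control (0.0828% of all genes by DESeq2 and 0.0142% by limma-voom), where DESeq2 gave an adjusted p for 8. The clock score is the first principal component of log2 CPM of these 10 genes (11 were listed) and holds 68.7% of their variance. A high score means high Dbp, an output gene of the clock, and low Arntl, the gene of BMAL1. Dbp averaged 61.2 ± 32.4 CPM on control, 22.6 ± 19.8 on red and 80.5 ± 43.5 on tangerine, and Arntl 7.83 ± 6.87, 17.1 ± 7.33 and 6.24 ± 4.01 CPM. The score was 0.66 ± 2.39 on control, -2.24 ± 1.90 on red and 1.57 ± 1.98 on tangerine (SD, n = 12 each). The hour at which each liver was taken is not given in the sources used here, so diet and hour cannot be told apart.

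Within diets, Gclc fell as the clock score rose (r -0.57, permutation p 0.000400, adjusted over 10 genes 0.00400, rho -0.63, adjusted 0.000600). It gave r of -0.63 on control, -0.81 on red and -0.36 on tangerine, and -0.58 over all livers without control replicates 188 and 120, the 2 farthest in the score. Srxn1 had r -0.42 and did not pass (permutation p 0.0118, adjusted 0.0589, rho -0.40, adjusted 0.0999, and r -0.47 without those 2). For Osgin1, whose relation had been described earlier in these data, r was -0.31 (permutation p 0.0615, adjusted 0.205, rho -0.35, adjusted 0.137). It was -0.40 without the same 2 livers, and -0.17 on control, -0.62 on red and -0.12 on tangerine. On red that value was -0.29 without replicates 204 and 177, the 2 farthest in Osgin1. Gclm, the partner of Gclc, had r -0.06 (permutation p 0.735, adjusted 0.735).

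**Figure D4:**
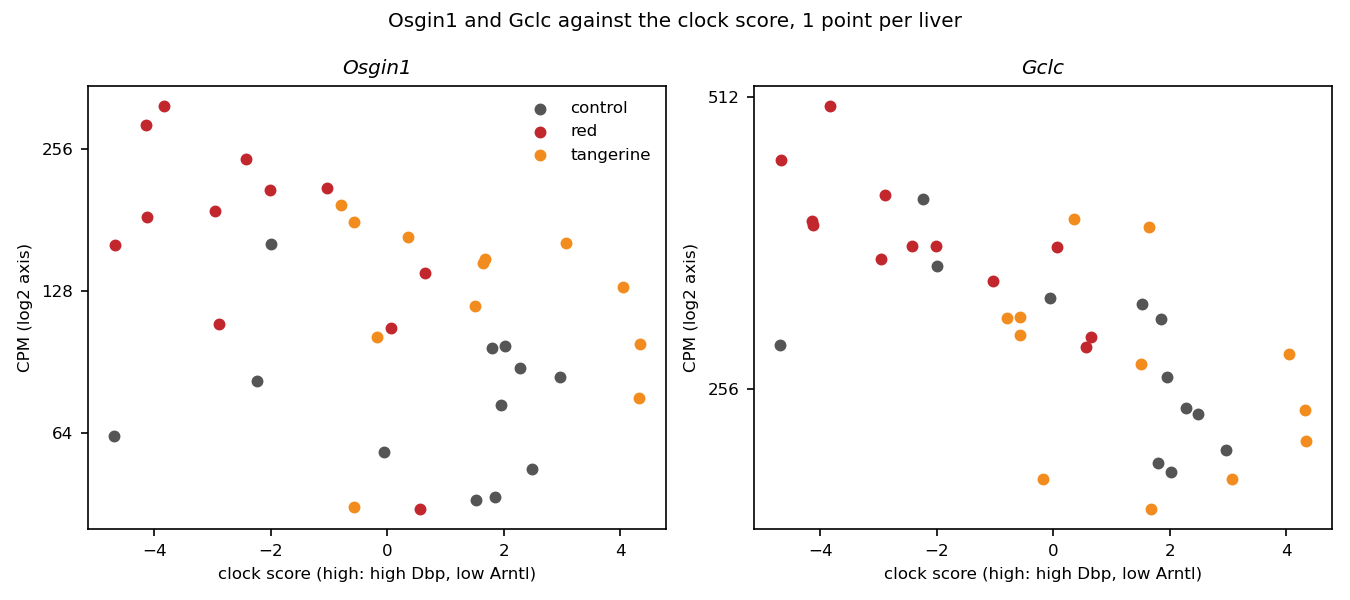
Osgin1 and Gclc in CPM (log2 vertical axes) against the clock score (horizontal axis, no unit), with 1 point per liver coloured by diet. Red livers lie at low scores (mean -2.24) and tangerine livers at high ones (mean 1.57). Within control, red and tangerine the r with the score is -0.63, -0.81 and -0.36 for Gclc and -0.17, -0.62 and -0.12 for Osgin1.

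The genes whose level followed Osgin1 most closely between mice of 1 diet were other than the members. Over 36 livers the 5 highest correlations were with Dusp10 (r 0.76), a phosphatase of stress-activated kinases, Id2 (0.75), a helix-loop-helix inhibitor of transcription, Xbp1 (0.70), a factor of the unfolded protein response, D630039A03Rik (0.70) and Gfod2 (0.69). The 5 lowest were with Tnfrsf1b (r -0.85), a receptor of tumor necrosis factor, AA986860 (-0.84), Ap3m1 (-0.77), a subunit of a vesicle coat, Noct (-0.75), a rhythmic phosphatase, and Slc35g1 (-0.75). They were picked for their r, so no p is given. Without the 2 livers farthest in Osgin1, Dusp10 stayed at 0.77 and Tnfrsf1b at -0.81. In the diet comparisons, Dusp10 had a log2 fold change of 0.11 and Tnfrsf1b of -0.26 in red against control (edgeR adjusted p 0.721 and 0.429). Of the 10, Gfod2 was called in tangerine against red (-0.47, edgeR adjusted p 0.00394) and the other 9 passed in none of the 3 comparisons. In the fit with the clock score Gfod2 had -0.27 there (edgeR adjusted p 0.259), as 0 of 14068 genes passed. With the clock score itself, r within diets was 0.58 for Ap3m1, 0.56 for Noct, -0.54 for Gfod2, -0.43 for D630039A03Rik and 0.42 for AA986860. It was -0.30 for Dusp10, -0.25 for Id2, -0.07 for Xbp1, 0.15 for Tnfrsf1b and 0.25 for Slc35g1, beside -0.31 for Osgin1. The part of the clock in these likenesses was not tested. Of 10 marker lists, the summed B cell markers had the highest r with Osgin1 (0.61, and 0.64 without red replicate 186), at very low levels between 0.595 and 3.50 CPM with Ms4a1 at 0 in all livers. Erythroid markers had r 0.32 and Kupffer cell markers -0.39, and the part of these cells was not tested.

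The wider pathway was covered by 52 further genes in 5 lists. Of the 10 regulators and partners of NRF2, 0 were called by edgeR against control on either powder. Over all genes edgeR called 0.149% on red and 0.0142% on tangerine there. Between the tomato diets, where 1.71% of all genes were called, Maff, a small MAF partner, was higher on tangerine than on red. Maff held 4.44 ± 1.71 CPM on control, 2.66 ± 0.947 on red and 4.95 ± 2.27 on tangerine, which gave a log2 fold change of 0.90 between the tomato diets (edgeR adjusted p 0.0312, SE 0.228). Including the clock score gave 0.03 (adjusted p 0.964). At an unadjusted p under 0.05 the list gave 1 gene higher and 1 lower in red against control and 0 in tangerine against control. Of all genes, 13.3% and 5.47% had such a p. DESeq2 called 0 in both comparisons (with an adjusted p for 9 of the 10 on tangerine). Limma-voom called Maff and Cul3 as lower and Sqstm1 as higher on red and 0 on tangerine. Over all genes DESeq2 called 1.29% on red and 0.0828% on tangerine, and limma-voom 10.5% and 0.0142%. Between the tomato diets DESeq2 called Maff and limma-voom called Maff, Bach1 and Mafk, all higher on tangerine. These tools called 2.89% and 5.2% of all genes there. The median of the list was -0.07 on red and 0.04 on tangerine against control.

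Of 22 listed genes of conjugation, reduction and export of xenobiotics, 20 were tested, without Cbr3 and Ugt1a6a. EdgeR called 0 in either comparison with control, where it called 0.149% of all genes on red and 0.0142% on tangerine. Between the tomato diets, where 1.71% of all genes were called, it called 1. This was Cyp2a5, a cytochrome P450 of the liver, at 172 ± 80.2 CPM on control, 96.1 ± 39.6 on red and 194 ± 79.4 on tangerine. Between the tomato diets it was higher on tangerine, at a log2 fold change of 1.02 (edgeR adjusted p 0.0309, SE 0.256). Including the clock score gave -0.06 (adjusted p 0.907). At an unadjusted p under 0.05 there were 4 higher and 2 lower genes on red and 4 higher and 0 lower on tangerine against control. Of all genes, 6.67% were higher at such a p on red and 2.32% on tangerine (13.3% and 5.47% in either direction). In red against control DESeq2 called 2 genes (Abcc3 and Aox1, higher) and limma-voom 2 (Aox1 higher and Cyp2a5 lower). In tangerine against control each called 0 (DESeq2 with an adjusted p for 17 of the 20). Over all genes they called 1.29% and 10.5% on red, 0.0828% and 0.0142% on tangerine, and 2.89% and 5.2% between the tomato diets. Between the tomato diets DESeq2 called Cyp2a5, and limma-voom called Cyp2a5 as higher and Aox1 as lower on tangerine. The median was 0.10 on red and 0.14 on tangerine. Neither Maff nor Cyp2a5 passed without the low-count filter (edgeR adjusted p 0.0630 and 0.0635) or without the 3 libraries that stood apart in markers (0.0601 and 0.0840). Both calls were lost on leaving out red replicate 133, 156, 166, 175, 199 or 202 or tangerine replicate 215, 216 or 217, and that of Cyp2a5 also without tangerine replicate 242. Reads of near-identical glutathione S-transferase genes may be split between copies, since the counting of shared reads is not given in the sources used here.

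The lists nearest to glutathione and NADPH gave no call by edgeR in any comparison over all 36 livers. Over all genes edgeR called 0.149% on red and 0.0142% on tangerine against control. It called 1.71% between the tomato diets and 0.00711% for both tomato diets together against control. Of 8 glutathione and thioredoxin enzymes 6 were tested, without Slc7a11 and Gpx2. Gss, the second enzyme of glutathione synthesis, had a log2 fold change of 0.33 (edgeR adjusted p 0.151, SE 0.105) and Glrx, a glutaredoxin, of -0.19 (SE 0.058, adjusted p 0.132) in red against control. Prdx6, a peroxiredoxin, had 0.18 (edgeR adjusted p 0.0757, SE 0.055) in tangerine against red. At an unadjusted p under 0.05 the list gave 1 higher and 1 lower gene on red, 0 on tangerine against control, and 3 higher and 1 lower between the tomato diets. Of all genes, 13.3%, 5.47% and 15.1% had such a p in these comparisons. In other edgeR fits Prdx6 passed with the tomato groups alone (adjusted p 0.0430) and without tangerine replicate 192 (0.0370), and Glrx in red against control without red replicate 177 (0.0155). DESeq2 called Prdx6 between the tomato diets, and limma-voom called Gss and Glrx on red and Glrx and Prdx6 between the tomato diets. Over all genes DESeq2 called 2.89% between the tomato diets, and limma-voom 10.5% on red and 5.2% between the tomato diets. Of 6 genes that supply NADPH 5 were tested, without G6pdx. All 5 lay below 0 on red against control (51.5% of all genes did) and above 0 on tangerine against red (48.5% of all genes). These 2 comparisons share their red livers. In tangerine against control 4 of the 5 also lay below 0, with a median of -0.03 against -0.01 over all genes. Among the 5, Me1 had -0.41 (SE 0.212), Pgd -0.26 (SE 0.192) and Idh1 -0.13 (SE 0.059) in red against control (edgeR adjusted p 0.408, 0.587 and 0.352). Idh1 was the single gene of that list at an unadjusted p under 0.05. On red limma-voom called it (10.5% of all genes were called) and DESeq2 called 0 of the list (1.29% of all genes).

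All 6 genes of iron and heme handling were tested. EdgeR, DESeq2 and limma-voom called 0 of them in any comparison, with 0 at an edgeR unadjusted p under 0.05. Over all genes, edgeR called 0.149% on red and 0.0142% on tangerine against control, and 1.71% between the tomato diets. In the same order DESeq2 called 1.29%, 0.0828% and 2.89%, and limma-voom 10.5%, 0.0142% and 5.2%. An edgeR unadjusted p under 0.05 was held by 13.3%, 5.47% and 15.1% of all genes. Counts of 0 in 6 genes lie near these shares. Slc48a1, a heme transporter, had a log2 fold change of 0.08 (SE 0.047) in red against control. Blvra, which reduces biliverdin, had 0.11 (SE 0.061) and Ftl1, the ferritin light chain, 0.15 (SE 0.096) in tangerine against red (edgeR adjusted p 0.473, 0.414 and 0.461 in this order).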

How the data were processed

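RNA from the 36 livers was measured by RNA-seq. RNA was extracted with RNeasy columns and made into directional libraries, per the labels' protocols. The authors deposited 1 table of raw read counts per gene, not normalized. Per the submitters' processing notes, FastQC, Trimmomatic and edgeR were used with genome build GRCm38.p6. The aligner, counter, annotation and strand setting are not given in the sources used here, so reads of a gene and an overlapping antisense gene may not be separated. Gene symbols and positions came from GENCODE M21 by identifier (53620 of 53715 matched). The other 95 identifiers held 0.00177% of all counts. All columns were matched to samples by the names in the labels (0 not used). Upstream sequences came from the RefSeq table of GRCm38.p6.

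EdgeR 4.0.16 in R 4.3.3 was run on the deposited counts of all 36 libraries: filterByExpr (count of 10, total of 15), TMM scaling, robust quasi-likelihood F test, diet as the single factor. P-values were adjusted by Benjamini-Hochberg over the 14068 genes, threshold 0.05. CPM values use TMM library sizes, and log2 CPM a prior count of 2. The labels state a range of mice per group that starts below 12 and give no batch or collection time. If some libraries share a mouse, p-values measure only the spread between libraries. Total counts averaged 26718757 on control, 27540418 on red and 27492158 on tangerine. Correlations used values centred on diet means with 100000 two-sided permutations within diets (numpy 2.4.6).

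Genes were named by rule: the 10 members, from each further list the genes past the threshold in any comparison or else the 3 with the smallest p in the test of any diet difference, Osgin2, Dbp and Arntl, and the 5 highest and 5 lowest r with Osgin1. Genes of the lists called by DESeq2 or limma-voom, and those not tested, are also named, chosen after their values were seen. The members and lists were chosen with earlier results of these data known. Alternatives were no low-count filter, the size factors of DESeq2, its 1.42.0 test, limma-voom with sample weights (limma 3.58.1), the clock score as covariate, the groups compared alone, another prior count, each library left out, and, chosen after seeing the data, 3 libraries left out together and, for the marker correlations, red 186 or tangerine 192 alone. The scripts were tested on simulated data.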

Additional observations from a re-analysis of the deposited data

Results flagged for a closer look

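Between the 2 tomato diets 241 of 14068 genes were called (1.71%), and 3 of them are among the members and the further listed genes. Their levels differed between red and tangerine livers by a direct test of these 2 groups. EdgeR called none of them against control on either powder. Gclc had a log2 fold change of -0.43 in tangerine against red (edgeR adjusted p 0.0359), with 12 of 12 red livers and 6 of 12 tangerine livers above the control median. Maff had 0.90 (edgeR adjusted p 0.0312) and Cyp2a5 had 1.02 (edgeR adjusted p 0.0309), each with 1 of 12 red livers above the control median, beside 6 and 5 of 12 tangerine livers. The clock score averaged -2.24 on red and 1.57 on tangerine, and in the fit that included it the adjusted p of Gclc, Maff and Cyp2a5 was 0.712, 0.964 and 0.907. No gene was called in that fit (0 of 14068).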

How the results depend on the processing

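Of 2829 recomputed values of 67 results, 2681 kept their direction and, where there was one, their side of the threshold. A further 55 lost and 18 gained the threshold, and 75 changed sign. Osgin1 fold changes and the r of genes picked for likeness to Osgin1 had no threshold. Most other results had not passed at first, and 2412 of the values left out 1 library, so the 2681 say little about the calls. Between the tomato diets the call was lost in 12 of 36 such fits for Gclc, 9 for Maff and 10 for Cyp2a5. The number of the 9 genes called in red against control was 1 with DESeq2 and 1 with limma-voom in place of 0 (164 and 1482 genes in all, in place of 21), and 0 to 1 when single libraries were left out. In tangerine against red it was 0 without the low-count filter, with the clock score and without the 3 libraries apart in markers, in place of 1, and 0 to 1 with single libraries left out. No causes were tested. With the clock score as covariate the sign changed for Nqo1 (0.045) and Srxn1 (-0.073) in red against control, for Gclc (0.048) in tangerine against control, and between the tomato diets for Keap1 (-0.013), Txnrd1 (0.033), Srxn1 (0.18), Ugdh (0.018) and Cyp2a5 (-0.0575). In tangerine against red it also changed without the 3 libraries for Hmox1 (-0.035), Txnrd1 (0.0071), Srxn1 (0.044) and Ugdh (0.015), with limma-voom for Txnrd1 (0.012), Srxn1 (0.048) and Ugdh (0.031), and for Srxn1 with DESeq2 size factors (0.0015), without the filter (0.0062) and with DESeq2 (0.0016). Leaving out single libraries gave Nqo1 -0.092 to 0.024 in red against control and Gclc -0.086 to 0.026 in tangerine against control. Between the tomato diets it gave Keap1 -0.0026 to 0.024, Hmox1 -0.027 to 0.26, Txnrd1 -0.022 to 0.012, Srxn1 -0.035 to 0.061 and Ugdh -0.049 to 0.0302. Gclc in that comparison ran from -0.49 to -0.39, Maff from 0.78 to 1.01 and Cyp2a5 from 0.92 to 1.13.

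The r of Osgin1 with Txnrd1 was -0.083 with the clock score regressed out and -0.048 without the 3 libraries. With single libraries left out, r of Osgin1 ran from -0.053 to 0.15 with Keap1, -0.0197 to 0.17 with Gclm, -0.084 to 0.066 with Txnrd1, -0.11 to 0.032 with Ugdh and -0.44 to -0.23 with the clock score. With the clock score it was -0.37 without the 2 livers farthest in Osgin1, at a permutation p of 0.0377, for a relation already described in these data. Nqo1, at about 3 CPM, is the member whose precision depth limits most. No paired analysis was possible because no mouse number occurs in more than 1 diet.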
